A study of Homo sapiens with 24 samples.

Results

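The electron transport chain of mitochondria was examined through 59 nuclear genes that encode subunits of respiratory complexes I to IV. These genes were chosen by name from the known make-up of the complexes, but with earlier results of these data known. They were 59 of the 21386 genes listed for every library, with 36 genes of complex I, 4 of complex II, 9 of complex III and 10 of complex IV. Every one of them passed the filter on low counts in every comparison. The question was whether these genes changed after depletion of MCM7, a subunit of the MCM2-7 helicase that is loaded onto replication origins.

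The respiratory chain sits in the inner mitochondrial membrane and passes electrons from NADH and succinate to oxygen while pumping protons. Complex I takes electrons from NADH, complex II (succinate dehydrogenase) from succinate, complex III hands them to cytochrome c, and complex IV (cytochrome c oxidase) to oxygen. Most subunits are encoded in the nucleus and imported, while a small set of core subunits of complexes I, III and IV is encoded by mitochondrial DNA, so that each of these complexes is built from 2 genomes. Doxycycline itself is known to block protein synthesis on mitochondrial ribosomes, which makes parental cells given Dox the background for these genes.

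RNA from the melanoma line A375 and the lung adenocarcinoma line A549 was sequenced in 24 libraries, 3 biological replicates for each of 8 groups. In each line the groups were cells carrying a Dox-inducible shRNA against MCM7 (shMCM7 cells) and parental cells without the construct, either given Dox (1 μg/ml, 72 hours) or not (noDox). Cells of every group, controls included, had been arrested in G1 with a double thymidine block. The shMCM7 cells were a puromycin-selected pool made by lentiviral transduction and not a clone, and the parental controls carried neither a vector nor a scrambled shRNA. The shRNA target in MCM7 was a stretch of 21 bases that crosses an exon junction in 3 coding transcripts of GENCODE 29 (GRCh38, chr7:100097728-100097836, minus strand, intron included). It is shown because its only exact match among all annotated transcripts was in MCM7, and 0 of the 59 genes held it. Lower case marks the upstream exon and capitals the downstream exon.
MCM7 shRNA target: cagAGGAGGATTTCTACGAAA

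The A375 libraries held 146656792 to 283721575 counts and the A549 libraries 17911338 to 23452823, of which the 59 genes made up 0.552% to 0.628% in A375 and 0.501% to 0.641% in A549. The lowest count of any of the 59 genes in a library was 102. Values are given as CPM, the read count normalised to library size scaled with edgeR's TMM factors, in the order of replicates 1, 2 and 3. MCM7 was at 76.8, 76.4 and 77.2 CPM in A375 shMCM7 cells with Dox and at 131, 353 and 359 CPM without Dox, so that the uninduced replicate 1 stood apart from replicates 2 and 3. In parental A375 cells MCM7 lay at 369.8, 355 and 357 CPM with Dox and 352, 342 and 352 CPM without. In A549 the MCM7 counts go against the labels. MCM7 was at 299, 333 and 95.3 CPM in libraries labelled shMCM7 Dox, 329, 99.8 and 309 CPM in shMCM7 noDox, 329.8, 324 and 326 CPM in parental Dox and 314, 88.6 and 339 CPM in parental noDox libraries, so that low values stood under 3 different labels. Of the markers of the 2 lines, SOX10 was between 501 and 677 CPM in A375 and at 0 in all A549 libraries, and KRT7 was between 1709 and 2333 CPM in A549 against at most 25.5 CPM in A375. The melanocyte markers MLANA and TYR were at or near 0 in both lines. MITF, another of the melanoma markers, was not higher in A375 (26.7 to 45.1 CPM) than in A549 (35.7 to 52.0 CPM). Between parental cells its log2 fold change, A375 against A549, was -0.59.

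Many nuclear respiratory chain genes share promoter elements for the factors NRF1, GABPA (an ETS factor) and YY1, which coordinate their transcription. RefSeq promoter windows (GRCh38.p14, 250 bases before to 50 after the start) were found for 51 of the 59 genes. On both strands, the NRF1 motif (a pair of GCGC blocks around a short spacer, in capitals in the SDHA window) was in windows of 12 of the 51 genes (23.5%, against 6.98% of 27305 genes with a window), the ETS motif CCGGAAG in 15 (29.4% against 12.2%) and the YY1 motif AANATGGC in 21 (41.2% against 7.97%). At least 1 of the 3 motifs was found for 35 of the 51 genes (68.6%, against 23.4% of all genes), and no 2 motifs overlapped in any of their windows. A match of letters is a description and does not show that a factor binds. The windows of the most decreased gene of complexes II, III and IV in A375 are shown so that the motifs can be seen in place, with the motifs in capitals.
SDHA (chr5:218070-218369, + strand): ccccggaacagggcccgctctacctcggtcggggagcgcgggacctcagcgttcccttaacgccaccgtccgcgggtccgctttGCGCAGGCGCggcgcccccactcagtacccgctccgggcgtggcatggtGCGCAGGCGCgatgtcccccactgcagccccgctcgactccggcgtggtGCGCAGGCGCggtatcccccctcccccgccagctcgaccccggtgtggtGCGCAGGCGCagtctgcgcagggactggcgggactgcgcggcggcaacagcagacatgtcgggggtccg
UQCRC1 (chr3:48609597-48609896, - strand): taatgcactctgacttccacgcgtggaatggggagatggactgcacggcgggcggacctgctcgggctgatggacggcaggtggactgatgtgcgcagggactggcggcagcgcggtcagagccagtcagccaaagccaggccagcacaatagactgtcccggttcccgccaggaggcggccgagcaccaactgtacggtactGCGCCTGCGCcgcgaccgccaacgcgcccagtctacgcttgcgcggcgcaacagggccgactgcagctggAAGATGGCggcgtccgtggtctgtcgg
COX6A1 (chr12:120437863-120438162, + strand): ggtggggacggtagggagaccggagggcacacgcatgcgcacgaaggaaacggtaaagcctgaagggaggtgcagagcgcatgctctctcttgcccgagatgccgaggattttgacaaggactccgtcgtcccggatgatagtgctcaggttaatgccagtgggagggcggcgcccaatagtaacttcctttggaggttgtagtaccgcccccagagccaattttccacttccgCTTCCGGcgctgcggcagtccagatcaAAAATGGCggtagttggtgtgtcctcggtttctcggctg
The SDHA window held the NRF1 motif 4 times, starting at bases 85, 134, 183 and 232. UQCRC1 held 1 NRF1 and 1 YY1 motif, and COX6A1 held 1 ETS motif, read on the other strand, and 1 YY1 motif. None of the 3 motifs was in the window of NDUFV1, the most decreased gene of complex I. Among genes that decreased in A375 shMCM7 cells with Dox, 9 of the 12 with a window held at least 1 of the motifs, and among the rest 26 of 39.

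Some genes of each complex decreased with Dox in A375 shMCM7 cells, and the changes were small. Of the 59 genes, 15 decreased and 3 increased at an adjusted p below 0.05 (edgeR's quasi-likelihood test, Benjamini-Hochberg adjustment over 16087 genes), and 41 did not pass the test. Of all genes tested, 22.4% decreased and 20.6% increased and the share of the respiratory chain genes that decreased (25.4%) lay near this background, while the share that increased (5.08%) lay below it. Their median log2 fold change was -0.0851 (all genes 0.00448), and they ranged from -0.59 for COX6A1 to 0.21 for NDUFB5. Of the 59 log2 fold changes, 39 were below 0, beside 7951 of 16087 for all genes. At the stricter limits of a 1.5-fold change with p below 0.01, which 6.45% of all genes passed downwards and 5.58% upwards, COX6A1 was the only one of the 59 left. Without the uninduced replicate 1, in which MCM7 was low, 14 genes decreased and 3 increased, beside 21.3% and 19.5% of all genes. Without the uninduced replicate 2 the counts were 8 and 0, with 16.1% and 14.2% of all genes, and without replicate 3 they were 8 and 1, with 16.5% and 15.2%. COX6A1, COX8A, NDUFV1, NDUFB8, NDUFB9, SDHA, SDHB and UQCRC1 kept their call in all 14 alternative fits. Same-numbered libraries of these groups deviated together, and in a paired fit (replicate block) 19 genes decreased and 3 increased, beside 25.2% and 24.1% of all genes. Bulk RNA cannot tell a lower level in every cell from fewer cells with a high level.

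**Figure D1:**
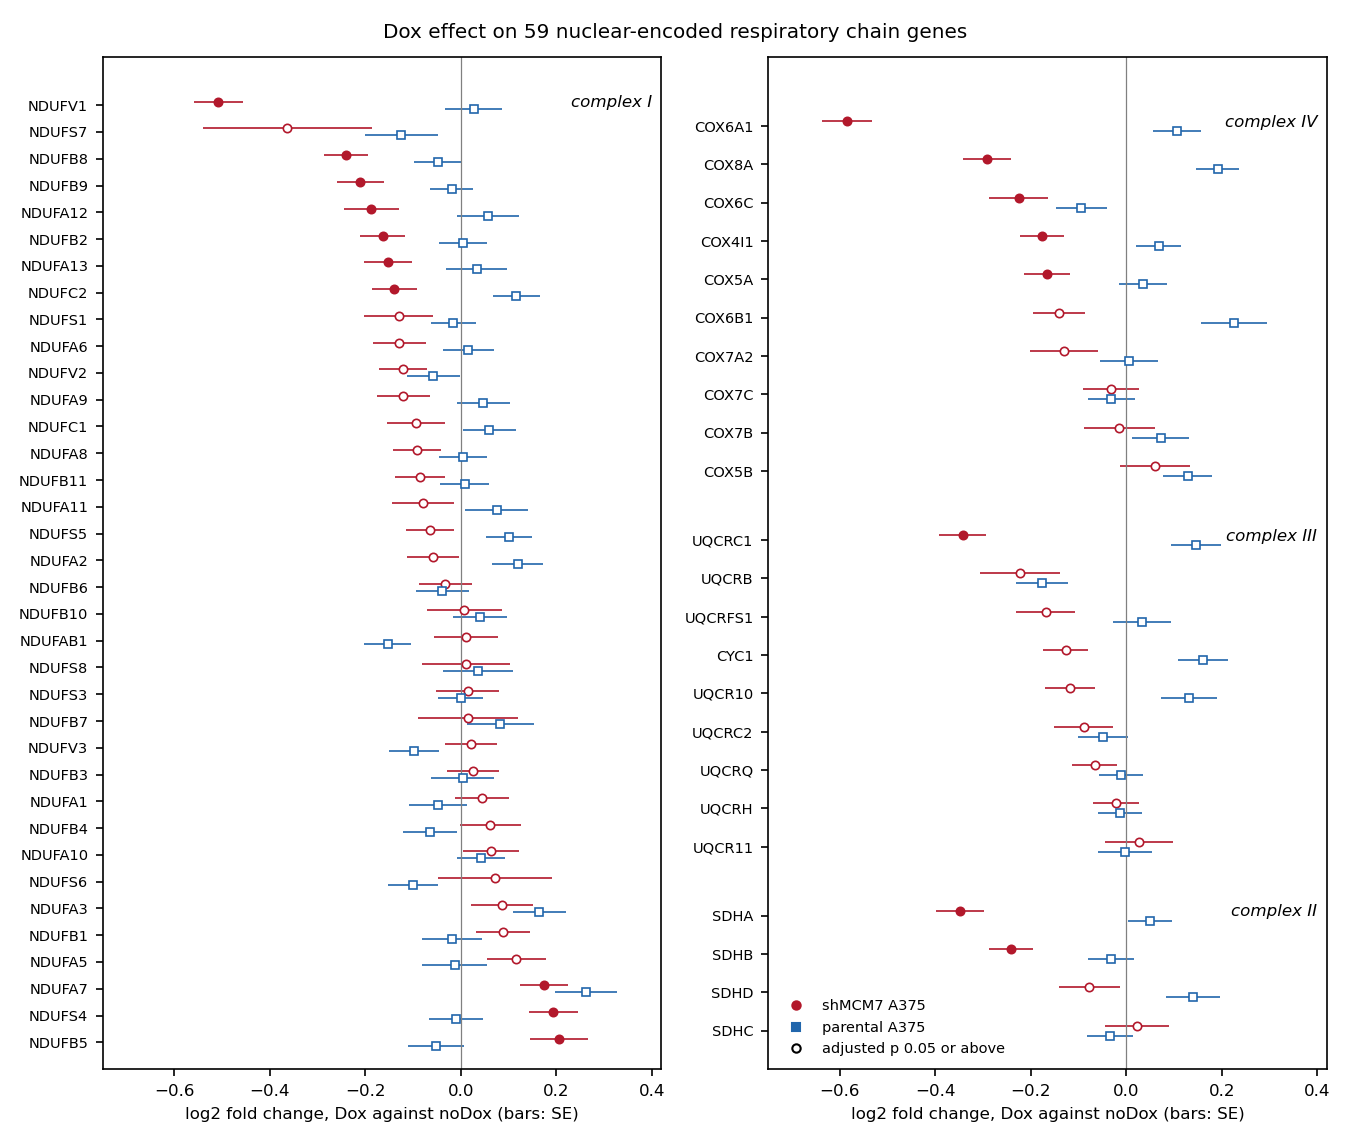
Each of the 59 genes is drawn with its log2 fold change (Dox against noDox, horizontal axis, bars are SE) in A375 shMCM7 cells (red circles) and parental cells (blue squares), ordered by size within each complex, with filled symbols for an adjusted p below 0.05. Complexes II, III and IV hold only filled symbols to the left of 0, complex I has 7 to the left and 3 to the right, and no parental value is filled.

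Complex I, the entry point for NADH, changed in both directions, with 7 of 36 genes decreased, 3 increased and a median log2 fold change of -0.0451. Of the 6 core subunits of the peripheral arm, which carry the flavin and the iron-sulfur clusters, only NDUFV1 passed the test. NDUFV1 (GRCh38 chromosome 11, 67605653 to 67612554) holds the NADH binding site and the flavin. Its level was 141, 136 and 149 CPM in shMCM7 cells with Dox and 201, 204 and 200.1 CPM without, whereas parental cells had 189, 208 and 214 CPM with Dox and 202, 189.9 and 207 CPM without. The 3 induced shMCM7 libraries lay below all 9 others, and the log2 fold change was -0.51 (SE 0.051, adjusted p = 1.08e-04 in edgeR). The partner flavoprotein subunit NDUFV2 (-0.12), the iron-sulfur subunit NDUFS1 (-0.13) and the ubiquinone-side subunits NDUFS3 (0.01) and NDUFS8 (0.01) did not pass. NDUFS7, which carries the last iron-sulfur cluster before ubiquinone, was uneven among induced replicates, at 31.5, 16.8 and 23.9 CPM against 32.2, 29.7 and 31.1 CPM without Dox. These groups overlapped and the change of -0.36 (SE 0.177) had an adjusted p of 0.124 in edgeR, or 0.012 with the replicate block.

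Among the 29 accessory subunits of complex I in the 2 arms, which surround the core and are needed for its assembly and stability, 6 decreased and 3 increased. NDUFB8 of the membrane arm stood at 90.4, 89.3 and 91.7 CPM with Dox and 107, 107 and 106 CPM without (log2 fold change -0.24, SE 0.045). NDUFB9, also of the membrane arm, stood at 122, 125 and 123 against 137, 147 and 144 CPM (-0.21, SE 0.049). In neither gene did the groups overlap. The other decreased subunits were NDUFA12 of the peripheral arm (-0.19), and NDUFB2 (-0.16), NDUFA13 (-0.15) and NDUFC2 (-0.14) of the membrane arm. In the opposite direction, NDUFS4, a small subunit at the NADH end of the peripheral arm, was at 36.3, 35.6 and 37.5 CPM with Dox against 31.6, 32.0 and 32.0 CPM without. Its induced libraries were above all 9 others, including 33.1, 30.6 and 31.5 CPM in parental cells with Dox, and the log2 fold change was 0.19 (SE 0.051, adjusted p = 0.0138 in edgeR). NDUFB5 of the membrane arm rose by 0.21 (SE 0.061) on the log2 scale. NDUFA7 of the peripheral arm rose by 0.17, and in parental cells its levels with Dox (55.8, 57.4 and 54.9 CPM) were also above those without (51.3, 44.8 and 43.7 CPM). NDUFA7 overlaps the ribosomal protein gene RPS28 on the other strand, and since it is not stated whether counting used the strand, its reads cannot be assigned with certainty. The same limit holds for NDUFB8 (HIF1AN), NDUFB9 (TATDN1 and MTSS1), NDUFB2 (BRAF) and NDUFC2 (THRSP). On the same strand, NDUFA13 overlaps YJEFN3, NDUFB2 overlaps ADCK2 and NDUFC2 overlaps NDUFC2-KCTD14. NDUFAB1, the acyl carrier protein found in both arms, had a log2 fold change of 0.01 and did not pass.

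In complex II, the only one of these without a subunit from mitochondrial DNA, both catalytic subunits decreased and neither membrane anchor passed the test. SDHA (GRCh38 chromosome 5, 218241 to 256700), the flavoprotein that oxidizes succinate, was at 124, 122 and 124 CPM with Dox and 149, 161 and 161 CPM without, a log2 fold change of -0.35 (SE 0.051, adjusted p = 6.74e-04 in edgeR). SDHB (chromosome 1, 17018722 to 17054170), which holds the iron-sulfur clusters, was at 105, 101 and 104 against 121, 123 and 122 CPM (-0.24, SE 0.046, adjusted p = 0.00265 in edgeR). The anchors SDHC and SDHD bind heme and ubiquinone. SDHC stood at 132, 155 and 156 CPM with Dox and 143, 147 and 145 CPM without (0.02, SE 0.068), and SDHD at 72.4, 85.3 and 80.9 CPM with Dox and 84.0, 83.5 and 83.9 CPM without (-0.08, SE 0.064). For SDHA and SDHB the induced libraries lay below all others in A375, whereas for both anchors induced and uninduced libraries overlapped. Annotated pseudogenes exist for SDHA (3), SDHC (4) and SDHD (3) and not for SDHB, so that reads of the first 3 could be shared with a copy. The difference between catalytic and anchor subunits was not itself tested.

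In complex III, which moves electrons from ubiquinol to cytochrome c, 1 of 9 genes decreased, while 8 of 9 log2 fold changes were below 0 (median -0.118). The decreased gene was UQCRC1 (GRCh38 chromosome 3, 48599002 to 48610976), a large core protein that faces the matrix, at 183, 185 and 194 CPM with Dox against 235, 235 and 241 CPM without (-0.34, SE 0.048, adjusted p = 5.53e-04 in edgeR). The second core protein UQCRC2 (-0.09) and the catalytic subunits CYC1, cytochrome c1 (-0.13), and UQCRFS1, the Rieske iron-sulfur protein (-0.17), did not pass. Of the small subunits, UQCRB had the largest estimate (-0.22, SE 0.084), with an adjusted p of 0.0575 in edgeR. Its uninduced replicate 1 (97.1 CPM) lay with the induced libraries (99.2, 99.5 and 91.3 CPM) and not with uninduced replicates 2 and 3 (121 and 119.7 CPM). With the replicate block the adjusted p was 0.0301 for UQCRB and 0.0292 for UQCRFS1 in edgeR, so that both then passed.

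Complex IV had 5 of 10 genes decreased and none increased, and 9 of 10 log2 fold changes were below 0 (median -0.153). These nuclear subunits surround the catalytic core, which mitochondrial DNA encodes. COX6A1 (GRCh38 chromosome 12, 120438090 to 120440742), the isoform of subunit VIa found outside muscle, had the largest change of all 59 genes. Its level was 94.0, 96.8 and 99.8 CPM in shMCM7 cells with Dox and 139, 148 and 149 CPM without, whereas parental cells had 149, 149 and 152 CPM with Dox and 145, 138 and 133 CPM without. The induced libraries lay below the lowest of the other 9 libraries (133 CPM), and the log2 fold change was -0.59 (SE 0.052, adjusted p = 7.29e-05 in edgeR), so that the level fell by 33.4%. COX8A (chromosome 11, 63974607 to 63976543), a small subunit made as a ubiquitous isoform, was at 191, 181 and 195 against 227, 236 and 231 CPM (-0.29, SE 0.05). COX6C decreased by a similar amount (-0.23, SE 0.062), although 17 annotated pseudogenes can share its reads. COX4I1 (-0.18), the largest nuclear subunit, and COX5A (-0.17) were lower by less. COX5B, COX6B1, COX7A2, COX7B and COX7C did not pass, with log2 fold changes from -0.14 to 0.06. With the replicate block COX6B1 also passed (adjusted p = 0.0493 in edgeR). COX6A1 and COX8A each overlap an unnamed annotated gene on the same strand. COX4I1 overlaps EMC8 and COX6C overlaps VPS13B on the other strand, with the limit on counting given above. Named pseudogenes also exist for COX6A1 (2), COX4I1 (2) and COX5A (1), and 33 of the 59 genes have at least 1.

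**Figure D2:**
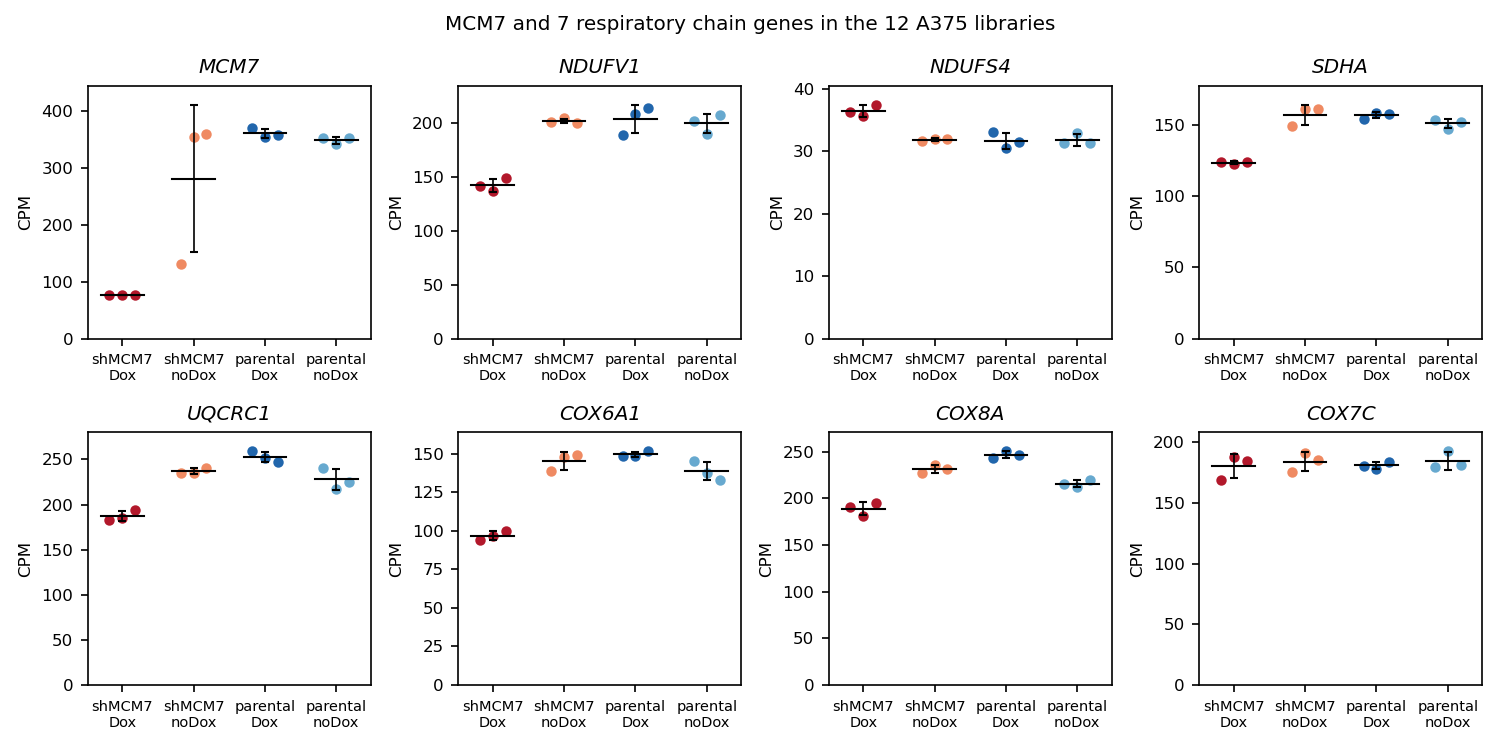
Each point is 1 of the 12 A375 libraries, with CPM on the vertical axis from 0 and the line and bars giving mean and SD of 3 replicates. NDUFV1, SDHA, UQCRC1, COX6A1 and COX8A are lowest in the 3 induced shMCM7 libraries and NDUFS4 is highest there, while COX7C overlaps in all groups and MCM7 shows the low uninduced replicate 1.

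Summed over the genes of a complex, the level was lower in each induced shMCM7 library than in every other A375 library, for all 4 complexes. Complex IV summed to 1371, 1406 and 1402 CPM with Dox and 1543, 1592 and 1579 CPM without in shMCM7 cells, and in parental cells to 1623, 1615 and 1625 CPM with Dox and 1556, 1534 and 1476 CPM without. Complex I, in which single genes went both ways, still summed to 2643, 2512 and 2604 CPM with Dox against 2748, 2753 and 2733 CPM without. For complex II the sums were 433, 464 and 465 against 497, 515 and 512 CPM, and for complex III 1184, 1190.1 and 1204 against 1265, 1331 and 1309 CPM. Sums are led by the most abundant genes, and no test was run on them.

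**Figure D3:**
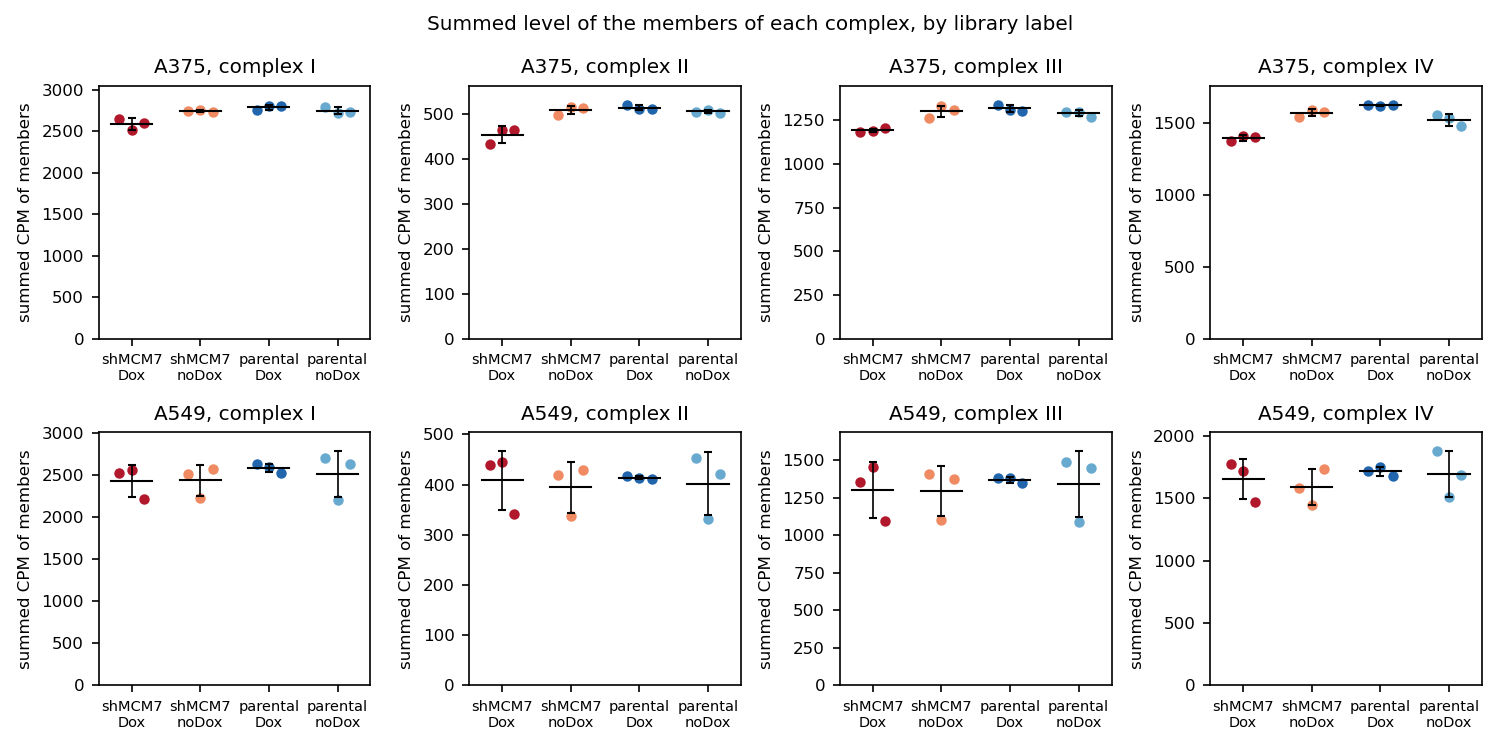
Summed CPM of the genes of each complex (vertical axis from 0) is shown for the 12 A375 libraries (top) and the 12 A549 libraries (bottom) by label, 1 point per library, with mean and SD of 3 replicates. In A375 the induced shMCM7 libraries are the lowest of each panel, and in A549 3 of the 4 labelled groups contain a single low library.

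In parental A375 cells, which show what Dox does without the shRNA, 0 of the 59 genes passed the test, as did 0% of all 15993 genes tested in edgeR, and the median log2 fold change was 0.00794. At an unadjusted p below 0.05 in edgeR there were 13 of the 59 genes and 1121 of the 15993 genes tested, a larger share of the 59 than of all genes. DESeq2 called 0 of the 59 genes and 9 lower and 36 higher among all. The largest estimates were upwards, for NDUFA7 (0.26, adjusted p = 0.503 in edgeR), COX6B1 (0.23, adjusted p = 0.598 in edgeR) and COX8A (0.19, adjusted p = 0.503 in edgeR). COX8A was at 243, 250.4 and 246 CPM with Dox and 215, 212 and 219 CPM without in these cells, groups that did not overlap.

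The Dox effect in shMCM7 cells was then compared with that in parental cells by the interaction term of a fit on all 12 A375 libraries. It passed the test downwards for 16 of the 59 genes and upwards for 2 (median difference -0.0984, all genes -0.00403), with 16.5% of all 16334 genes tested lower and 13.5% higher. Without the uninduced shMCM7 replicate 2 or 3 the counts were 10 lower and 0 higher in each case (of all genes, 12.8% or 12.96% lower and 10.1% or 10.3% higher). Without uninduced replicate 1 the counts were 16 and 1, beside 16.0% lower and 13.8% higher among all genes. The 2 upward calls were sensitive to single libraries, with 1 left without any of the 3 induced shMCM7 libraries and 0 left without parental Dox replicate 2 or 3 or parental noDox replicate 2. COX6A1 again had the largest difference (-0.69, SE 0.067), followed by NDUFV1 (-0.54, SE 0.078) and UQCRC1 (-0.49, SE 0.067), and COX8A was close to the third (-0.49, SE 0.06). SDHA (-0.40) and SDHB (-0.21) passed as well, whereas SDHD (-0.22) and SDHC (0.05) did not. A further 3 genes passed that had not passed in shMCM7 cells alone, namely COX6B1 (-0.37), which lies at the interface of the complex IV dimer, CYC1 (-0.29) and the small complex III subunit UQCR10 (-0.25). NDUFB5 (0.26) and NDUFS4 (0.20) were the 2 that passed upwards. NDUFA7 did not pass (-0.09, adjusted p = 0.439 in edgeR).

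Induced shMCM7 cells were also set against parental cells that had received the same Dox. Here 20 of the 59 genes were lower and 3 higher (median -0.0995), beside 24.8% lower and 23.2% higher among 16086 genes tested, and by complex the lower genes were 8 in complex I, 2 in complex II, 4 in complex III and 6 in complex IV. COX6A1 (-0.63), NDUFV1 (-0.52) and UQCRC1 (-0.44) had the largest changes that passed, and NDUFS7 (-0.47, adjusted p = 0.0686 in edgeR) did not pass. Without the parental Dox replicate 2 the counts were 13 lower and 0 higher (19.3% and 17.4% of all genes), and 1 gene was higher without induced replicate 2 or 3 or parental Dox replicate 3. This comparison shares its induced libraries with those above, so that it is not a separate experiment. In all, 13 genes were lower in the Dox effect, in the interaction and against parental cells with Dox. The share of all genes lower in all 3 was not counted, so no background stands beside this number. They were NDUFV1, NDUFA12, NDUFB2, NDUFB8, NDUFB9 and NDUFC2 of complex I, SDHA and SDHB of complex II, UQCRC1 of complex III, and COX4I1, COX5A, COX6A1 and COX8A of complex IV. Not all of these calls were firm. When single libraries were left out, NDUFC2 lost its Dox effect and its call against parental cells in 6 of 6 fits each, while its interaction kept its call in 12 of 12. NDUFA12 lost its Dox effect in 3 of 6, its call against parental cells in 5 of 6 and its interaction in 9 of 12.

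The uninduced cells tell how far the shMCM7 pool and parental A375 cells already differed without Dox. Of the 59 genes, 1 was lower and 0 higher (median 0.00537), beside 1.07% lower and 1.9% higher among 16093 genes tested. The gene was NDUFS7, at 32.2, 29.7 and 31.1 CPM in shMCM7 cells and 36.5, 34.9 and 37.4 CPM in parental cells (-0.23, SE 0.053, adjusted p = 0.0495 in edgeR). Its call was lost when shMCM7 noDox replicate 2 or 3 or any 1 of the parental noDox libraries was left out. NDUFA7 (0.23) and UQCRFS1 (0.22) had estimates of similar size upwards that did not pass. Same-numbered libraries of these groups deviated together, and in a paired fit (replicate block) 5 genes were lower and 4 higher, near the 7.62% lower and 8.40% higher of all genes in that fit, all with log2 fold changes within -0.23 (NDUFS7) and 0.23 (NDUFA7).

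Other genes of the pathway were followed in A375 shMCM7 cells with Dox. Of the 17 nuclear genes of ATP synthase (complex V), which uses the proton gradient, 6 decreased and 0 increased (median -0.103), led by ATP5MD (-0.25), ATP5MC3 (-0.23) and ATP5MF (-0.22). Of 43 assembly factors, 7 decreased and 6 increased. COX15, which makes the heme A of complex IV, fell most, from 62.5, 101 and 101 CPM without Dox to 28.8, 35.5 and 33.9 CPM with Dox (-1.43, SE 0.168, adjusted p = 2.18e-04 in edgeR). Its uninduced replicate 1, the library with low MCM7, lay between both groups, and parental cells were at 102, 102 and 98.8 CPM with Dox and 95.7, 95.9 and 96.7 CPM without. The complex I assembly factor ECSIT (-0.48) and the copper-handling protein COX19 (-0.46) also decreased, and SDHAF3 (0.45), LYRM7 (0.32) and COA4 (0.30) increased. Of the 13 protein genes of mitochondrial DNA, 0 decreased and 2 increased (median 0.182). Those were MT-CYB, the cytochrome b of complex III (0.50, SE 0.13), and MT-ND6 (1.70, SE 0.187). MT-ND6 is the only protein gene on the light strand, and with strand use not stated its counts may include antisense reads. In the interaction test MT-ND6 alone of the 13 passed (1.95), and MT-CYB did not (0.35, adjusted p = 0.124 in edgeR). Against parental cells with Dox, MT-ND4 was lower (-0.25), MT-ND6 was higher (1.41), and the median of the 13 was -0.0693. Without Dox, 1 of the 13 was already lower in shMCM7 than in parental cells, beside 1.07% of all genes. There 12 of the 13 log2 fold changes were below 0 (median -0.134), beside 8287 of 16093 for all genes. MT-ND6 was at 148, 94.2 and 83.4 CPM in uninduced shMCM7 cells and 156, 146 and 171 CPM in uninduced parental cells. Mitochondrial DNA made up 2.65% to 3.39% of counts in all A375 libraries. CYCS, cytochrome c, had a log2 fold change of 0.06 and did not pass. Of the 7 alternative isoforms of complex IV subunits, COX6A2, COX7A1 and COX4I2, known from muscle or lung, were at or near 0 in A375.

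Of 10 regulators, 2 decreased and 4 increased. The nuclear receptor ESRRA, an activator of respiratory chain genes, was at 50.7, 39.4 and 44.0 CPM with Dox and 61.4 ± 1.75 CPM (SD, n = 3) without (-0.46, SE 0.084), and TFAM, which binds and packages mitochondrial DNA, at 62.6, 68.9 and 62.7 CPM with Dox and 75.1, 78.8 and 75.7 CPM without (-0.24, SE 0.056). The coactivators PPARGC1A (0.52) and PPARGC1B (0.34) and the ETS factor subunits GABPA (0.28) and GABPB1 (0.26) increased. NRF1 (-0.10) and YY1 (0.00) did not pass. PPARGC1A was low, at most 3.98 CPM in any A375 library. In the interaction test ESRRA (-0.39), TFAM (-0.30) and PPARGC1B (0.30) passed, whereas PPARGC1A, GABPA and GABPB1 did not.

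Markers of both lines were followed beside these genes. Of 6 melanoma markers 4 were tested in A375 shMCM7 cells, and with Dox PMEL decreased (-0.92) and MITF increased (0.34). Their summed level was 581 to 675 CPM with Dox and 658 to 684 CPM without. Of 6 epithelial markers EPCAM increased (1.05) and KRT19 decreased (-1.10), both below 1 CPM in every A375 library, and the summed level of the 6 was 373 to 484 CPM with Dox and 355 to 417 CPM without. Parental cells were lower in this sum, at 293 to 299 CPM with Dox and 284 to 304 CPM without. Of the 6 epithelial markers, KRT7 (0.55), KRT8 (0.40) and KRT18 (0.41) were higher in uninduced shMCM7 than in parental cells. Against parental cells with Dox, 4 were higher (these 3 and EPCAM) and KRT19 was lower, and of the melanoma markers SOX10 (-0.27) and PMEL (-0.91) were lower and MITF higher (0.38). Both comparisons of shMCM7 with parental cells therefore carry this shift. The part of these markers in the results was not tested.

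The level per length of exon differed widely among subunits of the same complex. In uninduced parental A375 cells complex I ranged from 3.32 ± 0.110 CPM per kb of exon for NDUFA5 to 240.3 ± 6.34 for NDUFS5 (SD, n = 3). The range was 10.6 ± 0.349 (SDHC) to 50.8 ± 1.51 (SDHB) in complex II and 13.2 ± 0.721 (UQCRB) to 241 ± 5.93 (UQCRH) in complex III. In complex IV it was 22.4 ± 0.915 (COX6C) to 425 ± 7.35 (COX8A), the highest level per kb of all 59 genes. The length used is that of all annotated exons together, so genes with long rare isoforms, such as SDHC and UQCRB, come out low.

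The parental cells of the 2 lines were compared to see which subunits differ by cell type. Across the parental libraries of both Dox states, 27 of the 59 genes were lower and 18 higher in A375 than in A549, beside 39.9% lower and 45.0% higher among 15535 genes tested. NDUFB7 (1.96) and NDUFA13 (1.51), both of the membrane arm of complex I, were the furthest above A549, and UQCRFS1 (-1.90) was the furthest below. UQCRFS1 lay at 65.4, 66.2 and 61.5 CPM in parental A375 cells without Dox, and at 254, 197 and 272 CPM in A549 libraries with that label. With library totals in place of TMM factors the counts were 23 lower and 24 higher and the median changed from -0.0611 to 0.0424, while the median of all genes moved from 0.0766 to 0.180, so the balance of directions depends on the scaling. The lines also differed in depth, and line and depth cannot be told apart. The A549 side included parental noDox replicate 2, in which MCM7 was at 88.6 CPM. Dox entered this fit by label, and the A549 labels are in doubt.

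In A549, by label, Dox changed 0 of the 59 genes in cells labelled shMCM7 (0% of 13550 genes tested in edgeR) and 0 in parental cells (0% of 13494). At an unadjusted p below 0.05 there were 0 of the 59 genes in either comparison, with 61 and 1137 among all genes, and DESeq2 called 0 of the 59 in both. MCM7 varied within the labelled groups, so that these tests do not compare depleted with undepleted cells. The largest estimates were NDUFS7 (-0.21), NDUFS8 (-0.19) and NDUFA11 (-0.16) in cells labelled shMCM7 and NDUFS7 (0.68), NDUFB7 (0.52) and NDUFV1 (0.48) in parental cells. With the 3 libraries low in MCM7 left out, 0 of the 59 genes passed in either comparison and the medians were 0.0214 and -0.0351.

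Single A549 libraries are therefore given by label with no test, since their condition cannot be taken from measured values. COX6A1 was at 119, 129 and 79.1 CPM in the libraries labelled shMCM7 Dox, 112, 76.2 and 117 CPM in those labelled shMCM7 noDox, 122, 126 and 119.5 CPM in parental Dox and 125, 76.9 and 125 CPM in parental noDox libraries. SDHB was at 76.1, 77.0 and 53.1 CPM (shMCM7 Dox), 71.4, 51.5 and 77.2 CPM (shMCM7 noDox), 75.3, 74.5 and 72.2 CPM (parental Dox) and 83.7, 50.6 and 77.5 CPM (parental noDox). For both genes the libraries labelled shMCM7 Dox 3, shMCM7 noDox 2 and parental noDox 2 were the lowest of the 12, as they were for MCM7. NDUFV1 was at 94.8, 121 and 63.2 CPM in shMCM7 Dox, 124, 69.8 and 110.2 in shMCM7 noDox, 128, 121 and 121 in parental Dox and 91.3, 49.1 and 126 CPM in parental noDox libraries. UQCRC1 was at 156, 179 and 127 CPM (shMCM7 Dox), 174, 126 and 172 CPM (shMCM7 noDox), 181, 184 and 174 CPM (parental Dox) and 179, 124 and 172 CPM (parental noDox). The lowest 3 libraries were again those. They were the lowest 3 for 27 of the 59 genes (45.8%), beside 19.3% of 13643 genes tested in A549, and not for the other 32, among which were COX5A, COX6C, NDUFA13 and NDUFC2, decreased in A375, and NDUFS7, NDUFB7 and NDUFS4. COX15, the heme A synthesis factor, was at 103, 93.8 and 17.4 CPM in shMCM7 Dox and 88.8, 18.9 and 103 CPM in shMCM7 noDox libraries, at 94.2, 91.7 and 93.0 CPM in parental Dox and at 106, 17.7 and 90.5 CPM in parental noDox libraries. NDUFS4 was at 47.4, 42.8 and 42.9 CPM (shMCM7 Dox), 43.3, 46.7 and 46.0 CPM (shMCM7 noDox), 43.1, 43.7 and 47.3 CPM (parental Dox) and 52.7, 50.8 and 46.7 CPM (parental noDox), without a library that stood apart in the same way. The sum over complex IV was 1776, 1717 and 1475 CPM (shMCM7 Dox), 1588, 1447 and 1739 CPM (shMCM7 noDox), 1722, 1751 and 1678 CPM (parental Dox) and 1879.9, 1513 and 1691 CPM (parental noDox). The part of MCM7 in these values was not tested.

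**Figure D4:**
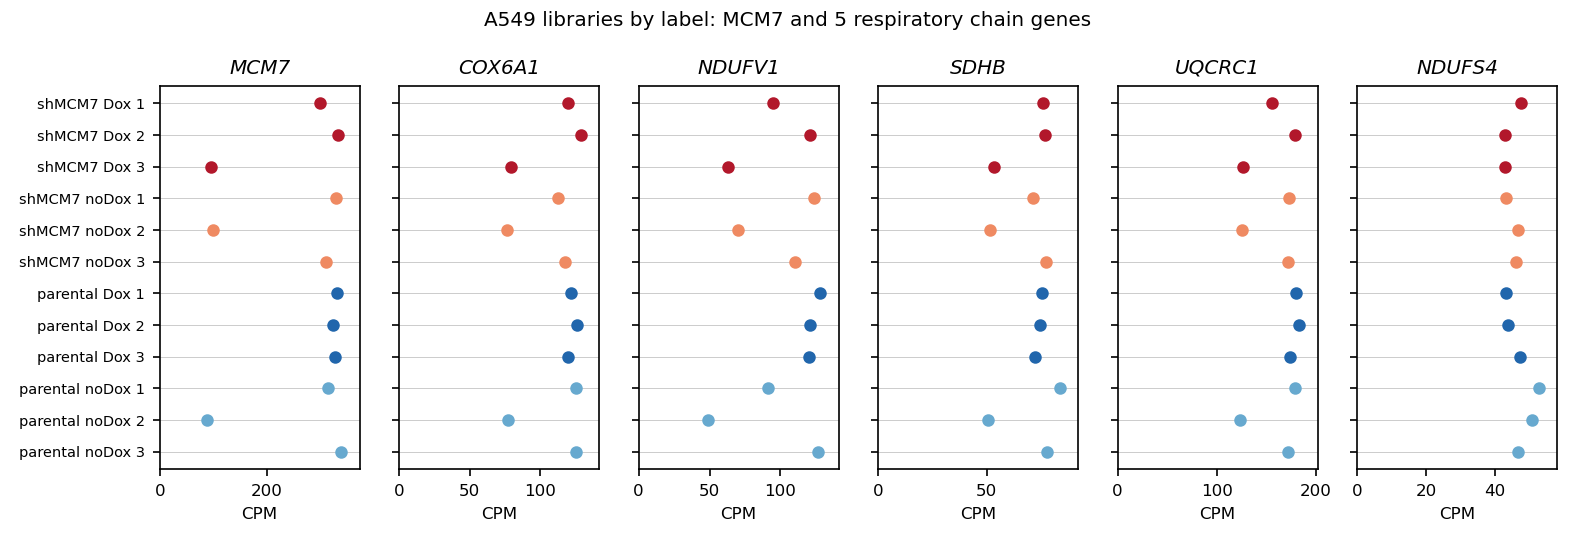
Each row is 1 of the 12 A549 libraries by its label, and each panel gives the CPM of 1 gene from 0. The rows shMCM7 Dox 3, shMCM7 noDox 2 and parental noDox 2 are lowest for MCM7 and also for COX6A1, NDUFV1, SDHB and UQCRC1, whereas NDUFS4 shows no such pattern.

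Correlation among the 59 genes across the A375 libraries varied widely from pair to pair. Pairs of all genes were not examined, so no background stands beside these values. Over their 1711 pairs, the correlation of log2 CPM across the 12 libraries had a median of 0.15, with a range from -0.943 to 0.983, and was above 0 for 61.4% of pairs. The 3 genes whose pattern was most like that of COX6A1 were SEC13 (r = 0.995), PMF1 (r = 0.995) and MRPL37 (r = 0.993), none of them a respiratory chain subunit. These are descriptions over 12 libraries that share groups, with no test.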

How the data were processed

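RNA was sequenced in 24 libraries, and groups were taken from the labels. The authors deposited read counts per Ensembl gene for each library, not normalized. The submitters' processing notes list bcl2fastq 2.19, Trimmomatic, STAR 2.7.1, featureCounts and edgeR with GRCh38.p10. Counting settings, strand use and annotation release are not given in the sources used here. GENCODE 29 gave names and positions.

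Counts were tested with edgeR 4.0.16 in R 4.3.3 (TMM factors, filterByExpr, glmQLFit, glmQLFTest), using only the groups compared, with adjustment over all genes tested. A call is an adjusted p below 0.05. Tables were made in Python 3.11.15. The 24 pairs of replicates all differed beyond sampling noise (lowest chi-square per degree of freedom 1.95). The steps were tested on simulated data. Members, gene lists and motifs were chosen with earlier results of these data known. Named genes are called genes with the largest changes per complex, all complex II and core complex I subunits, the 3 largest changes of each comparison, and the highest and lowest level per complex. UQCRB in A375 shMCM7 cells, COX15, NDUFS4 and the count of lowest libraries in A549, mitochondrial and marker genes against parental cells, and summed levels were singled out after their values were seen. SCO2 matched 2 identifiers and was left out. The A549 libraries were not regrouped by MCM7 level.

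Alternatives were DESeq2 size factors, library totals, the DESeq2 1.42.0 Wald test, no filter, offsets for gene length and GC content, a spread shared by all libraries of a line, a replicate block with and without these offsets, and leaving out each library. Same-numbered libraries deviated together in A375 shMCM7 cells with and without Dox (r between 0.195 and 0.34 across genes) and in uninduced shMCM7 and parental A375 cells (0.488 to 0.531), which was taken as pairing from the data, since the labels state none. A count of 3 corresponds to at most 0.0205 CPM in A375 and 0.167 CPM in A549, for counting error only. P-values measure the spread between these libraries.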

Additional observations from a re-analysis of the deposited data

Results flagged for a closer look

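For 18 of the 59 genes, edgeR's test of the interaction found a different response to Dox in shMCM7 than in parental A375 cells, and each difference is given here as a log2 value (shMCM7 minus parental). In complex I it was -0.5369 for NDUFV1, -0.2576 for NDUFC2, -0.2474 for NDUFA12, -0.1942 for both NDUFB8 and NDUFB9, -0.1704 for NDUFB2, 0.2012 for NDUFS4 and 0.2552 for NDUFB5. In complex II it was -0.40 for SDHA and -0.2109 for SDHB, and in complex III -0.4906 for UQCRC1, -0.2888 for CYC1 and -0.2527 for UQCR10. In complex IV the values were -0.6945 for COX6A1, -0.4857 for COX8A, -0.3688 for COX6B1, -0.2469 for COX4I1 and -0.2023 for COX5A. For 8 of these genes (NDUFC2, SDHA, UQCRC1, CYC1, UQCR10, COX6A1, COX8A and COX6B1) every Dox library of shMCM7 cells lay below every noDox library, while every Dox library of parental cells lay above every noDox library. The parental change by itself passed the test for 0 of these genes. How many of all genes share this pattern was not counted. The 8 were looked for only among genes already called in the interaction, so the count is a description.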

How the results depend on the processing

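Of 930 alternative values for genes that passed a test, 777 kept their call, 153 lost it with the same direction and 0 reversed. For the Dox effect in A375 shMCM7 cells, the median was -0.0743 with offsets for gene length and GC content, and 23 genes were lower with a replicate block and these offsets (26.6% of all genes). In parental A375 cells that fit called 1 gene lower and 3 higher (0.650% and 1.11% of all genes). For the difference of Dox effects the median was -0.0808 with library totals, -0.1312 with the offsets and -0.1329 with the block and offsets. In this comparison 1 gene was higher without a filter, with the offsets, or with both block and offsets, beside 11.3%, 16.9% and 20.5% of all genes. Between uninduced cells 0 genes were lower with DESeq2 size factors, 2 were lower and 2 higher in the DESeq2 Wald test, 2 and 1 with the offsets, 0 and 1 with a spread from all 12 libraries, 5 and 4 with the replicate block, and 4 and 5 with block and offsets. Of all genes, 7.62% were lower and 8.40% higher with the block, and 6.88% and 8.94% with block and offsets. The shares lower and higher were 1.01% and 1.93% with DESeq2 size factors and 2.37% and 3.49% in the DESeq2 Wald test. They were 1.06% and 2.04% with the offsets, and 1.14% and 2.38% with a spread from all 12 libraries. Against parental cells with Dox the median was -0.0845 without a filter. Between the lines it was 0.0424 with library totals. The cause was not tested.

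Leaving out 1 library at a time gave 8 to 14 lower and 0 to 4 higher genes for the Dox effect in A375 shMCM7 cells (median -0.0986 to -0.0786), a median of -0.0078 to 0.0351 in parental cells, and 10 to 17 lower and 0 to 2 higher genes for the difference (median -0.1257 to -0.0709). It gave 0 to 1 lower and 0 to 1 higher between uninduced cells, and 13 to 18 lower and 0 to 2 higher against parental cells with Dox (median -0.1071 to -0.0741). Of all genes, these fits called 16.1% to 21.3% lower and 14.2% to 19.5% higher for the Dox effect. For the difference the shares were 12.8% to 16.0% lower and 9.89% to 13.8% higher. Between uninduced cells they were 0.400% to 1.13% lower and 1.07% to 2.45% higher. Against parental cells with Dox they were 19.3% to 23.9% lower and 17.4% to 22.2% higher. In A549 parental cells 0 to 2 genes were higher, with 2 only without noDox replicate 3, where 2.81% of all genes were higher. A549 libraries held fewer counts than A375 libraries, and the lowest count of any of the 59 genes was 102.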
